A study of Sus scrofa with 30 samples.

Results

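On day (D) 16 the endometrium of pregnant gilts (PD16) was compared with that of gilts on the same day of the estrous cycle (CD16). The comparison used every library with either label, 5 of PD16 and 5 of CD16, 10 of the 30 libraries of the series, with 1 library per sample. The animals were crossbred gilts (Hampshire x Duroc) of 7-8 months from one commercial herd. Those of the pregnant group were inseminated at the third estrus and counted as pregnant when the uterus held at least 4 conceptuses, which were rinsed out of the horns on this day before endometrium was frozen. The labels repeat the insemination text for the cyclic group and give for it no other treatment. Total RNA was sequenced as small RNA, and counts were taken for the sequences that the authors annotated as mature miRNAs or their length variants. Of these, 872 had reads in the 10 libraries and 1 had none, and they fall into 239 miRNAs and 169 families that share a seed. These sequences were kept by the authors because they reached a minimum of reads in most samples of at least one group, these libraries included. A library held between 2029729 and 3424813 reads in PD16 and between 2503003 and 4526495 in CD16, of which 75.8% to 87.2% lay on the annotated sequences. Of them, 826 had reads in all 10 libraries. Normalized reads are counts per 1000000 annotated reads (CPM) after TMM scaling.

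A miRNA is a short RNA that guides Argonaute proteins to messenger RNAs and lowers their translation or stability. Bases 2 to 8 from its 5' end, the seed, do most of the target pairing, so miRNAs with one seed are grouped as a family. Length variants, or isomiRs, arise from uneven cuts by DROSHA and DICER1 and from trimming or tailing at the 3' end. A variant with a changed 5' end has another seed, while one with a changed 3' end keeps it. Around D16 the elongated conceptuses of the pig attach to the luminal epithelium under maternal progesterone, while in cyclic gilts luteolysis, driven by prostaglandin F2alpha, brings this support to an end.

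The sequences below carry the differences described, with the seed in capitals. The first set holds sequences with a lower mean in PD16, and in the miR-10 and miR-99/100 families it shows that the abundant members share a seed and differ further 3'. The form of miR-10a-5p that lacks the first base shows how a 5' change moves the seed.
miR-205: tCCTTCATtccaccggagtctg
miR-1468: cTCCGTTTgcctgttttgctga
miR-342, most abundant form: tCTCACACagaaatcgcacccgtc
miR-10a-5p: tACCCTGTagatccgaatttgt
miR-10a-5p without its first base: aCCCTGTAgatccgaatttgt
miR-10b: tACCCTGTagaaccgaatttgt
miR-99a, most abundant form: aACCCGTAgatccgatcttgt
miR-100, most abundant form: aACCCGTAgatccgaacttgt

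The second set holds sequences with a higher mean in PD16. The canonical forms of miR-532-5p and miR-23a are printed with it for comparison with their short forms.
miR-532-5p, 3 bases shorter at the 3' end: cATGCCTTgagtgtaggac
miR-532-5p: cATGCCTTgagtgtaggaccgt
short form shared by miR-23a and miR-23b: aTCACATTgccagggatt
miR-23a: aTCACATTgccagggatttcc
miR-30a-3p: cTTTCAGTcggatgtttgcagc
miR-127, most abundant form: tCGGATCCgtctgagcttgg
miR-495-3p: aAACAAACatggtgcacttctt
miR-16, 1 base longer at the 3' end: tAGCAGCAcgtaaatattggcgt

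Ranked by their mean over both groups, the 10 most abundant miRNAs took 82.0% ± 3.46 (SD, n = 5) of the annotated reads in PD16 and 83.3% ± 4.76 in CD16. miR-21, an abundant miRNA of many proliferating or inflamed tissues, took 39.8% ± 13 and 26.4% ± 7.02. By library its share was 20.3%, 53.0%, 35.8%, 50.2% and 39.7% in PD16 replicates 1 to 5 and 32.9%, 33.6%, 19.5%, 18.9% and 26.9% in CD16 replicates 1 to 5. The groups overlapped, and the difference of 13.4 points had an exact permutation p = 0.0714 (two-sided, adjusted p = 0.675 over 10 measures). With 1 library left out the log2FC of miR-21 ranged from 0.34 to 0.76. Of its 18 sequences, length variants of one another, 17 were higher. Of these 5 had an unadjusted p under 0.05 in edgeR's F-test, where 4.58% of all sequences were higher at that level. The others of the 10 were miR-143-3p, miR-10a-5p, miR-10b, let-7f, let-7g, miR-148a-3p, miR-99a, miR-30a-5p and let-7i. Ranked within a group the last places differed, with miR-30d and miR-148b-3p ahead of miR-99a and let-7i in PD16 and let-7a and miR-100 ahead of miR-30a-5p in CD16. Of the 10, let-7f (log2FC 0.17 ± 0.30 (SE)), let-7g (-0.0520 ± 0.35) and miR-148a-3p (0.18 ± 0.36) differed by less than their errors, and let-7g turned its sign with all deposited reads as library size.

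PD16 replicate 1 stood apart by several measures and CD16 replicate 3 by some. PD16 replicate 1 was nearest to CD16 replicate 4 (Spearman rho across sequences 0.938) and had a median rho of 0.854 with its own group against 0.896 with CD16. It lay outside the range of the other PD16 libraries for 338 of the 539 sequences compared, 62.7%, where the other 9 libraries gave 21.5% to 49.9%. For CD16 replicate 3 this was 46.9%, within the range of the others. CD16 replicate 3 had the highest share of reads on annotated sequences, 87.2%, and a median rho of 0.819 with PD16 and 0.858 with CD16. The first component of the normalized reads (42.9% of the variance) put these 2 libraries at its low end. The biological coefficient of variation was 0.495, and 0.455 without PD16 replicate 1. No 2 libraries had counts that agree within sampling noise.

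**Figure D1:**
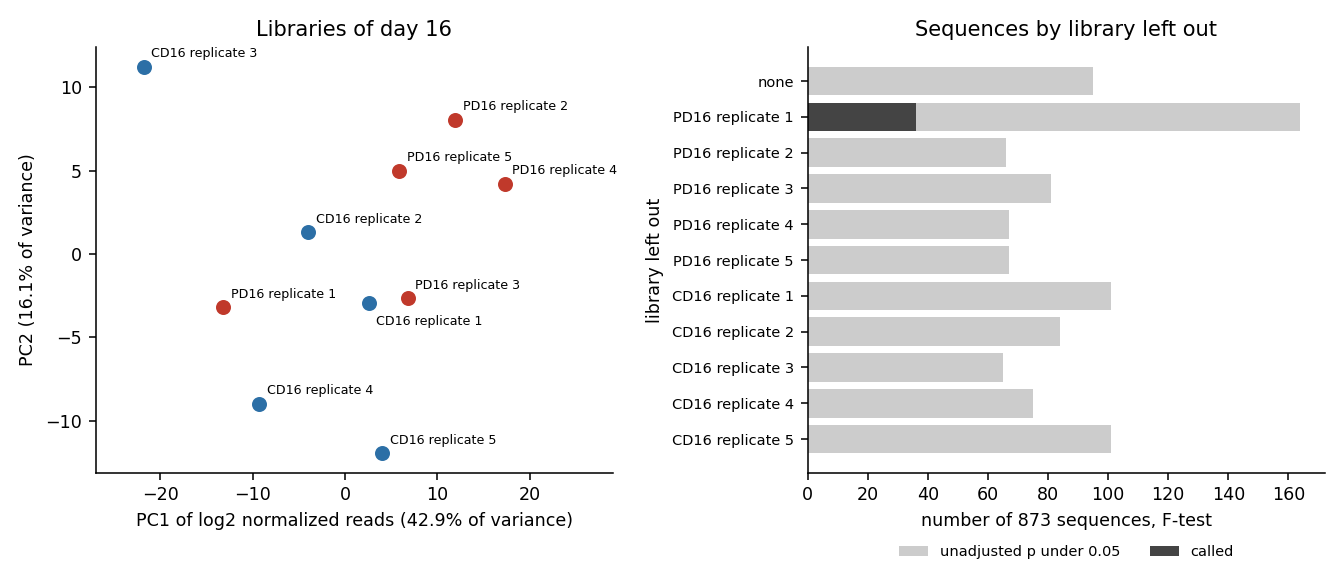
Left, each of the 10 libraries by its first and second principal component of log2 normalized reads (42.9% and 16.1% of the variance), PD16 in red and CD16 in blue. Right, bars of the number of annotated sequences with an unadjusted F-test p under 0.05 (grey) and called (dark), with all libraries or with the named one left out: 36 were called without PD16 replicate 1 and 0 in every other row.

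With all 10 libraries no sequence, miRNA or family was called, where a call needed more than a 2-fold difference (log2FC beyond 1 in either direction) and an adjusted p under 0.05 in edgeR's F-test by quasi-likelihood. So 0 sequences were called (0% of those tested), and the smallest adjusted p was 0.212. Without adjustment, p was under 0.05 for 40 sequences higher in PD16 (4.58%) and 55 lower (6.3%), together 95 (10.9%). For miRNAs these were 13 higher (5.44%) and 10 lower (4.18%), together 23 (9.62%), and for families 8 higher (4.73%) and 10 lower (5.92%), together 18 (10.7%). With all deposited reads as library size the 94 sequences at p under 0.05 were split into 57 higher and 37 lower, so the balance between the directions depended on the scaling. The likelihood ratio test of edgeR called 5 sequences (0.573%) and DESeq2 7 (0.805%), 1 of them higher in PD16 in each case. Without PD16 replicate 1 the F-test called 36 (4.12%), 7 higher and 29 lower, and without any other single library 0. The 5 PD16 libraries all lay above the 5 CD16 libraries for 5 sequences (0.573%) and all below for 12 (1.37%).

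Among miRNAs, the smallest p-values belonged to 2 that were less abundant in PD16. miR-205, an epithelial miRNA that keeps cells from turning mesenchymal, was counted at 10.5, 28.4, 18.6, 7.84 and 12.2 normalized reads in PD16 replicates 1 to 5, and at 26.7, 21.7, 106, 55.1 and 117 in CD16 replicates 1 to 5. Only PD16 replicate 2 reached the range of the cyclic libraries. The means were 15.5 ± 8.22 and 65.2 ± 44.1 (SD, n = 5), with log2FC -2.08 ± 0.50 (SE), adjusted p = 0.181 in the F-test, and 0.0833 as a family of its own. The likelihood ratio test and DESeq2 called it (adjusted p = 0.0149 and 0.00687), and the F-test called the family without PD16 replicate 1, PD16 replicate 2, CD16 replicate 1 or CD16 replicate 2 (adjusted p = 0.0365, 0.0366, 0.0164 and 0.0272). All 3 of its sequences were lower at p under 0.05, with a log2FC of -2.71 for the canonical form and -2.0 for the form with 1 added base at the 3' end.

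miR-378, whose precursor lies in the gene of the metabolic coactivator PGC-1beta, was counted at 58.4, 94.4, 116, 128 and 67.4 normalized reads in PD16 replicates 1 to 5, and at 158, 134, 414, 180.2 and 417 in CD16 replicates 1 to 5. Here the groups did not overlap, with log2FC -1.49 ± 0.39 (SE) and adjusted p = 0.181. The likelihood ratio test and DESeq2 called it too (adjusted p = 0.0321 and 0.0185). Its canonical sequence (-1.53) and the form 1 base longer (-2.13) were both separated between groups. miR-1468, an X-linked miRNA, was counted at 32.3, 69.7, 33.1, 24.5 and 46.4 normalized reads in PD16 replicates 1 to 5, and at 45.5, 71.5, 92.5, 78 and 154 in CD16 replicates 1 to 5. PD16 replicates 2 and 5 lay above the lowest cyclic library, with log2FC -1.10 ± 0.37 (SE) and adjusted p = 0.36; DESeq2 called its canonical sequence. miR-342, a miRNA of lymphoid cells, was counted at 94.5, 48.7, 29, 45.3 and 87.4 normalized reads in PD16 replicates 1 to 5, and at 117, 302, 224, 76.2 and 48.3 in CD16 replicates 1 to 5, and the groups overlapped (log2FC -1.33 ± 0.48 (SE), adjusted p = 0.36). With 1 library left out its log2FC ranged from -1.56 to -0.85. The family of miR-335, which lies in the imprinted gene MEST, had 28.8 ± 10.6 normalized reads in PD16 and 58.2 ± 35.3 in CD16, with log2FC -1.01 ± 0.42 (SE) and adjusted p = 0.403.

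The cluster of miR-143 and miR-145, known from stroma and smooth muscle, had 3 miRNAs with a negative log2FC of at least the size of its SE, none past the adjusted threshold, and 1 near 0. miR-145-3p was counted at 31.5, 30.8, 28.4, 20.4 and 22.9 normalized reads in PD16 replicates 1 to 5, and at 35.4, 31.4, 52.8, 46.7 and 138 in CD16 replicates 1 to 5. CD16 replicate 5 was far above the others, and PD16 replicate 1 barely reached the lowest cyclic library (log2FC -1.18 ± 0.40 (SE), adjusted p = 0.36). Without CD16 replicate 5 the log2FC was -0.63. miR-145-5p had a log2FC of -1.03 ± 0.46 (adjusted p = 0.453). miR-143-3p, second by the mean over both groups, had 77549.7 ± 15855 normalized reads in PD16 and 118619 ± 35494 in CD16 (log2FC -0.61 ± 0.33 (SE), adjusted p = 0.584). The rarer miR-143-5p had 131 ± 49.7 and 141 ± 80.0 normalized reads (log2FC -0.11 ± 0.38 (SE)). Of the 19 sequences of miR-143-3p, length variants of one another, 17 were lower and 7 of them at p under 0.05, where 6.3% of all sequences were lower at that level. The form 2 bases shorter at the 3' end was separated between groups, with 407, 218, 319, 304 and 214 normalized reads in PD16 against 499, 579, 615, 727 and 867 in CD16 (log2FC -1.17 ± 0.32 (SE)), and DESeq2 called it. let-7i, a let-7 member of differentiated cells, was counted at 12649.8, 14211, 16215, 11900.1 and 16662 normalized reads in PD16 replicates 1 to 5, and at 16881, 19176, 33811, 27985 and 24181 in CD16 replicates 1 to 5. The groups did not overlap, although the difference was small (log2FC -0.77 ± 0.30 (SE), adjusted p = 0.408). miR-185 was separated in the same way, with 204 ± 22.4 normalized reads in PD16 and 322 ± 80.2 in CD16.

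miR-127 and miR-495-3p come from the imprinted DLK1-DIO3 region, whose miRNAs are expressed from the maternal chromosome. miR-127 was counted at 523, 1289, 1037, 1623 and 719 normalized reads in PD16 replicates 1 to 5, and at 888, 356, 421, 327 and 471 in CD16 replicates 1 to 5. CD16 replicate 1 lay among the pregnant libraries, and the log2FC was 1.08 ± 0.38 (adjusted p = 0.36). The other arm of its hairpin, at 6.47 ± 1.74 and 2.54 ± 1.21 normalized reads, differed by 1.30. miR-495-3p was counted at 6.22, 4.32, 3.62, 3.75 and 5.37 normalized reads in PD16 replicates 1 to 5, and at 2.46, 2.17, 0.508, 2.20 and 1.62 in CD16 replicates 1 to 5. It was scarce, and the groups did not overlap (log2FC 1.32 ± 0.49 (SE), adjusted p = 0.36). miR-155, an immune miRNA induced by inflammatory signals, was counted at 10.1, 7.40, 6.72, 13.3 and 11.2 normalized reads in PD16 replicates 1 to 5, and at 5.23, 3.97, 7.62, 3.08 and 2.44 in CD16 replicates 1 to 5. Only CD16 replicate 3 reached into the pregnant range (log2FC 1.13 ± 0.42 (SE), adjusted p = 0.36).

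miR-30b-5p, of a family common in epithelium, was counted at 510.0, 637, 694, 559.5 and 643 normalized reads in PD16 replicates 1 to 5, and at 384, 389.6, 308, 417 and 284 in CD16 replicates 1 to 5. The groups did not overlap (log2FC 0.77 ± 0.26 (SE), adjusted p = 0.36). miR-30a-3p, from the other arm of miR-30a, was counted at 249.7, 990.0, 996, 1728 and 792 normalized reads in PD16 replicates 1 to 5, and at 582, 322, 398, 318 and 835 in CD16 replicates 1 to 5. PD16 replicate 1 had the lowest value of all 10 libraries, and the log2FC of 0.95 ± 0.44 became 1.28 without it. Over all fits with 1 library left out it ranged from 0.62 to 1.28. The families of miR-218-5p (0.98 ± 0.42) and of the other arm of miR-24 (1.08 ± 0.41) were also higher (adjusted p = 0.403 and 0.279).

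Several of the sequences with the smallest p were length variants, and the test of their share within the miRNA, given further on, called none. The form of miR-532-5p that lacks 3 bases at the 3' end was counted at 5.06, 22.2, 6.21, 4.09 and 7.32 normalized reads in PD16 replicates 1 to 5, and at 1.54, 2.53, 1.02, 0.441 and 2.44 in CD16 replicates 1 to 5. The groups did not overlap (log2FC 2.40 ± 0.59 (SE), adjusted p = 0.212), and the likelihood ratio test and DESeq2 called it, while all forms of miR-532-5p together differed by 0.27 ± 0.34. The short form shared by miR-23a and miR-23b was counted at 2.72, 35.2, 8.79, 13.3 and 8.79 normalized reads in PD16 replicates 1 to 5, and at 3.38, 1.44, 0.508, 3.52 and 6.09 in CD16 replicates 1 to 5 (log2FC 2.15 ± 0.64 (SE), adjusted p = 0.272). miR-23a shortened by 2 bases had a log2FC of 2.02, against 0.48 ± 0.32 for miR-23a as a whole and 0.15 ± 0.50 for miR-23b, whose sign turned when PD16 replicate 3 or CD16 replicate 3 was left out. miR-16 with 1 added base was separated between groups, at 28 ± 6.09 and 12.2 ± 4.87 normalized reads. Shortened miR-30c-5p (1.47) and miR-423-5p (1.06), both without 2 bases at the 3' end, completed the 6 higher sequences with the smallest p.

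**Figure D2:**
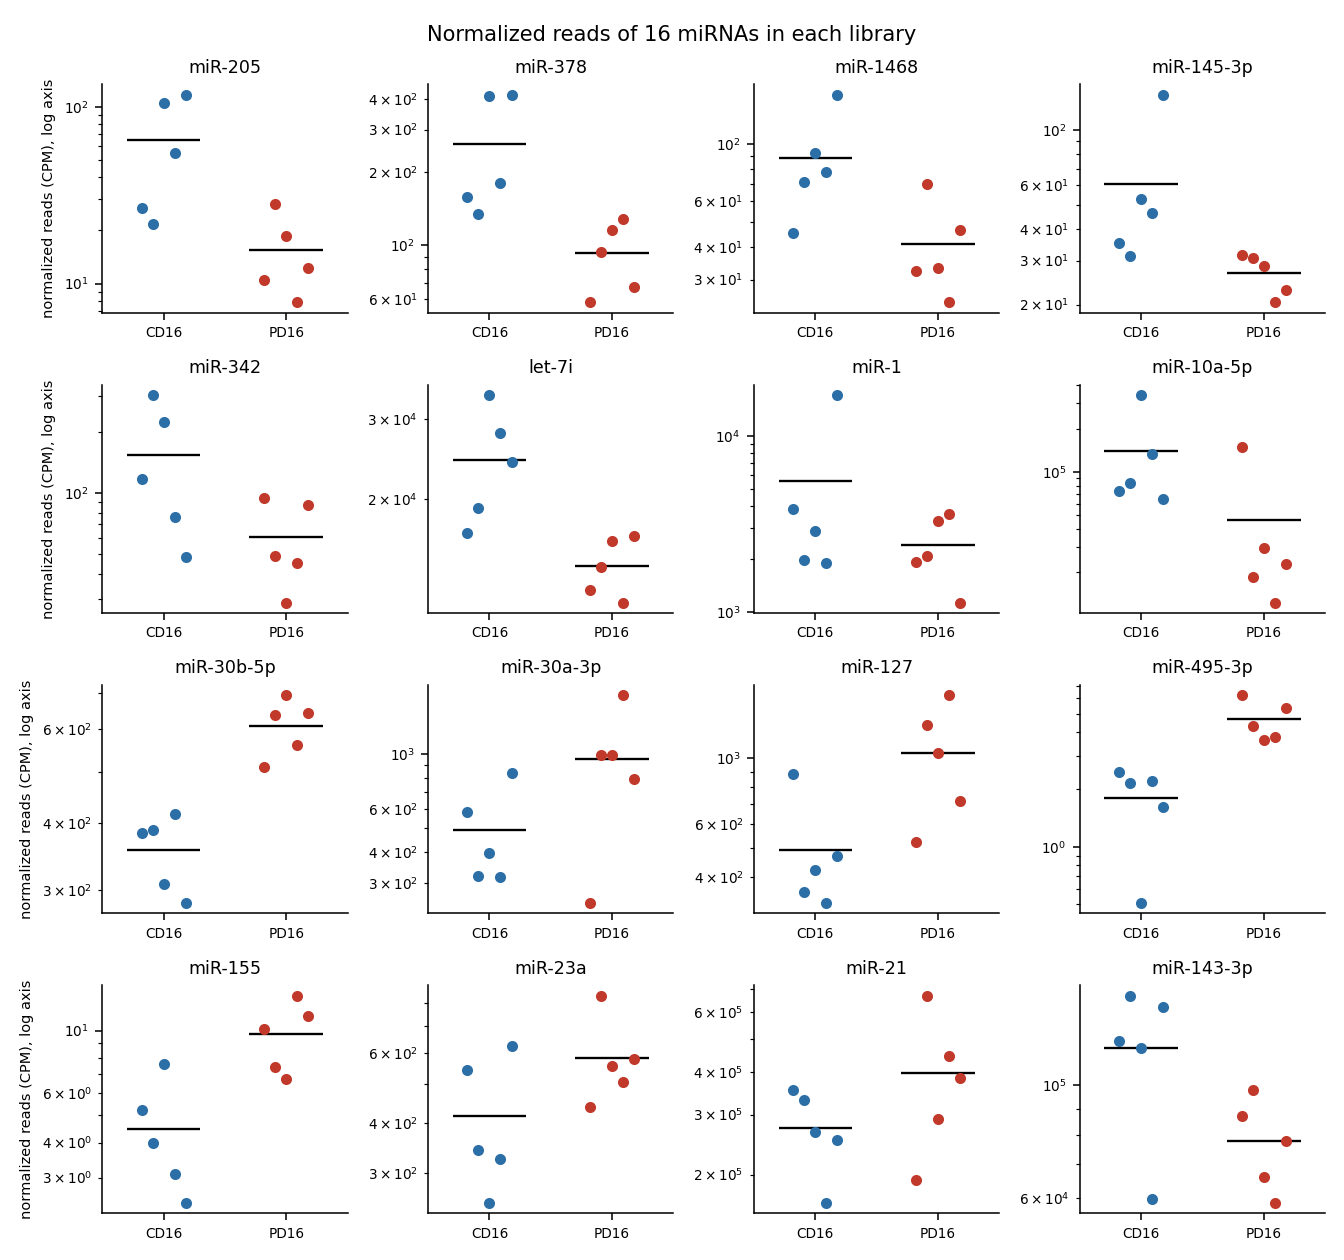
Normalized reads (CPM, log axis) of 16 miRNAs, 1 point per library with CD16 in blue and PD16 in red, the horizontal line being the mean of 5. The groups are apart for miR-378, let-7i, miR-30b-5p and miR-495-3p and overlap in the other panels; PD16 replicate 1 is the high red point of miR-10a-5p.

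The miR-10 family, encoded within the HOX clusters and tied to position along the body axis, was lower in most pregnant libraries, and its call depended on PD16 replicate 1. miR-10a-5p was counted at 148465, 18568, 29319.6, 12283 and 22732 normalized reads in PD16 replicates 1 to 5, and at 73056, 82893, 341904, 133108 and 65138 in CD16 replicates 1 to 5. PD16 replicate 1 lay above 4 of the 5 cyclic libraries, while the other 4 pregnant libraries lay below all cyclic ones. CD16 replicate 3 was the highest of all. With every library the log2FC was -1.59 ± 0.67 (adjusted p = 0.453). Without PD16 replicate 1 it was -2.70 ± 0.48 (adjusted p = 0.00541), and without PD16 replicate 1 and CD16 replicate 3 -2.20 ± 0.35 (adjusted p = 0.000797), called in each case. Without CD16 replicate 3 alone it was -0.96. miR-10b was counted at 157918, 36241, 37904, 22144 and 43329.5 normalized reads in PD16 replicates 1 to 5, and at 89448, 83518, 287300.0, 78925 and 51267 in CD16 replicates 1 to 5 (log2FC -0.99 ± 0.56 (SE), adjusted p = 0.584). Its log2FC was -1.70 without PD16 replicate 1, -0.38 without CD16 replicate 3 and -1.22 without both, not called in any of these.

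The sequences of this family are no independent measurements, since length variants come from the same precursors. All 21 sequences of miR-10a-5p were lower, 14 at p under 0.05 (10.9% of all sequences), and all 11 of miR-10b were lower, none at that level. Without CD16 replicate 3 only 3 of the 37 sequences of miR-10 and miR-196 were at that level (7.45% of all sequences). Of the 36 sequences called without PD16 replicate 1, 12 were of miR-10a-5p and 4 of miR-10b. Their log2FC was -2.82 ± 0.52 for canonical miR-10a-5p, -3.04 ± 0.58 for the form without its first base, -3.27 ± 0.55 for the form with 2 added 3' bases and -2.05 ± 0.48 for canonical miR-10b. The miR-99a/miR-100/miR-99b family, which shares one seed and lies in clusters with let-7 and miR-125, was called without that library too, at -1.42 ± 0.35 (adjusted p = 0.0365). miR-99a was counted at 44708, 7163, 18714, 3961 and 12584 normalized reads in PD16 replicates 1 to 5, and at 29079.9, 19646, 30664, 44991 and 40247 in CD16 replicates 1 to 5 (log2FC -0.92 ± 0.52 (SE), adjusted p = 0.584). Again PD16 replicate 1 was high, while the other 4 pregnant libraries lay below all cyclic ones. The log2FC of miR-99a was -1.61 without PD16 replicate 1, -0.96 without CD16 replicate 3 and -1.75 without both, not called in any of these. Of other sequences called lower without PD16 replicate 1, miR-193b-3p with 1 added base was at -3.44 ± 0.67, against -1.98 ± 0.69 with all 10 libraries. The less abundant arm of miR-144 was at -3.30 ± 0.86, against -0.47 ± 0.95 with all 10 libraries. Also called lower without PD16 replicate 1 were 3 sequences each of miR-99a and miR-100, 2 of miR-143-3p and 1 each of miR-96, miR-378 and miR-205. The 7 called higher were the shortened forms of miR-30c-5p, miR-532-5p, miR-23a and miR-23a/miR-23b, 2 forms of miR-30a-3p (1.66 ± 0.43 for the canonical) and the most abundant form of miR-127 (1.44 ± 0.39). This library was named as apart after its values were seen, so the 36 calls are a description of the other 9 libraries.

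Lists of miRNAs known from single cell types were used to describe the make-up of the tissue. In bulk tissue fewer cells of a type and less RNA per cell cannot be told apart. Of all annotated sequences, 447 were higher and 425 lower in PD16, with a median log2FC of 0.03. Of the 238 miRNAs with reads, 140 were higher and 98 lower, with a median of 0.12. Leaving libraries out moved this background: p was under 0.05 for 164 sequences (18.8%) without PD16 replicate 1, 65 (7.45%) without CD16 replicate 3 and 164 (18.8%) without both, and without both 389 were higher and 483 lower. Epithelial miRNAs (12 of 13 found) had summed normalized reads of 22528 ± 5052 in PD16 and 21751 ± 7791 in CD16, led by miR-200c-3p. Of their 72 sequences 37 were higher and 35 lower, with a median of 0.0545, and 4 of 72, 3 of miR-205 and 1 of miR-200b-3p, were at p under 0.05, a share below the 10.9% of all sequences. Without CD16 replicate 3, 26 were higher and 46 lower, where 412 of all sequences were higher and 460 lower. Without PD16 replicate 1 and CD16 replicate 3, 25 were higher and 47 lower. Without PD16 replicate 1 alone, 8 of 72 were at p under 0.05, 7 of them lower (18.8% of all sequences). The miR-200 members, which hold cells in an epithelial state, ranged from -0.73 to 0.28, and miR-182 was at 0.29 ± 0.42 and miR-203-3p at 0.19 ± 0.29. With 1 library left out miR-182 ranged from 0.026 to 0.70 and miR-203-3p from 0.052 to 0.34. Markers of multiciliated cells (miR-34 and miR-449) had 4 sequences higher and 10 lower and none at p under 0.05 in either direction, with summed reads of 5861 ± 1206 in PD16 and 4667 ± 1837 in CD16.

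Stromal and smooth muscle miRNAs (miR-143, miR-145, miR-199 and miR-214) summed to 82493 ± 15612 in PD16 and 124724 ± 35864 in CD16, mostly canonical miR-143-3p. The groups overlapped, with CD16 replicate 4 (64789) inside the PD16 range of 63522 to 101617. Of the 54 sequences of this list 13 were higher and 41 lower, with a median of -0.40, and the 12 at p under 0.05 (against 10.9% of all sequences) were lower. These 12 came from miR-143 and miR-145, while miR-199 and miR-214 had none at that level, with a log2FC from -0.39 for miR-199a-3p to 0.31 for a second miR-199b-5p entry. Of the 11 miRNAs of the list 8 were lower and 3 higher, where 98 of all 238 with reads were lower. Without PD16 replicate 1 and CD16 replicate 3, 9 sequences were higher and 45 lower, in a fit where the median of all sequences was -0.0752. In that fit 18 of 54 were at p under 0.05, 17 of them lower and 1 higher, against 18.8% of all sequences. Endothelial miR-126 gave 11 sequences higher and 6 lower, none at p under 0.05, and 8 higher and 9 lower without PD16 replicate 1, at 3414 ± 199 in PD16 and 3311 ± 751 in CD16. Leukocyte miRNAs went both ways, in that miR-155, miR-150 (0.77), miR-146a-5p (0.63) and both arms of miR-142 (1.05 and 0.67) were higher and miR-342 lower, and their sums were 298 ± 112 in PD16 and 301 ± 122 in CD16. Of the 19 leukocyte sequences 14 were higher, with 2 in each direction at p under 0.05 (10.9% of all sequences), and without PD16 replicate 1 and CD16 replicate 3 9 were higher and 10 lower.

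Erythrocyte miRNAs (miR-451, miR-144 and miR-486) ranged widely between libraries, from 343 to 3603 summed normalized reads, and were 1447 ± 1289 in PD16 and 1537 ± 1122 in CD16. Of their 16 sequences 6 were higher and 10 lower, with 1 of 16 at p under 0.05 (10.9% of all sequences), and 3 of 16 without PD16 replicate 1 (18.8% of all sequences). Of the striated muscle markers, miR-1 was counted at 1936, 2098, 3287, 3634 and 1137 normalized reads in PD16 replicates 1 to 5, and at 3854, 1983, 2906, 1909.8 and 17050.4 in CD16 replicates 1 to 5. CD16 replicate 5 lay far above the others, and the log2FC of -1.20 ± 0.57 became -0.14 without it. The same library held the most miR-145-3p. Of the 8 muscle sequences 6 were lower, 4 of them at p under 0.05 (10.9% of all sequences), and without CD16 replicate 5 only 1 was at that level (11.6% of all sequences). miR-206 and miR-499-5p averaged 4.03 and 19.8 normalized reads over the 10 libraries, with miR-133 not among the annotated sequences. The part of smooth or striated muscle tissue in the samples was not tested. The read that the article names miR-302, a miRNA of embryonic stem cells, stands in the annotation under gene identifiers and had 0 reads in all 10 libraries. A count of 0 allows up to 3 reads per group, or 0.282 CPM in PD16 and 0.227 CPM in CD16. The same sequence had 308 reads over the 6 PD20 libraries and 3 over the 5 CD20 libraries.

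**Figure D3:**
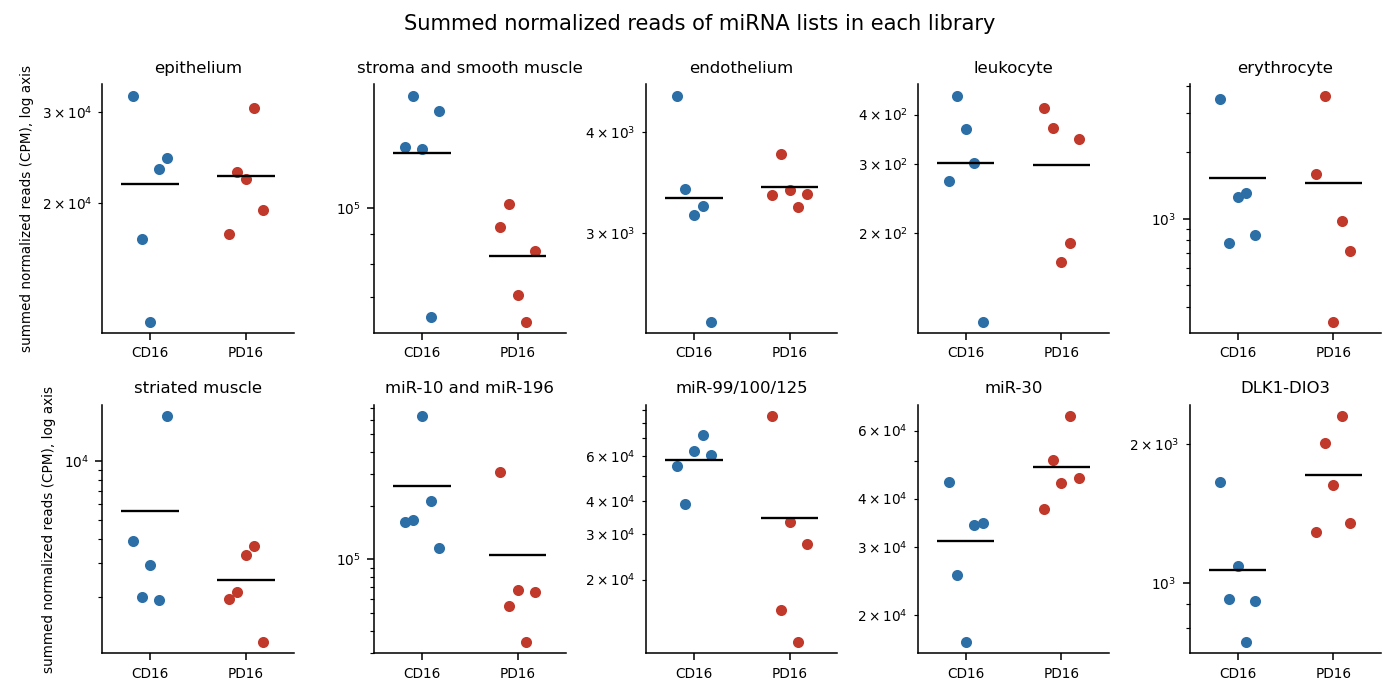
Summed normalized reads (CPM, log axis) of 10 lists of miRNAs, 1 point per library with CD16 in blue and PD16 in red, the line being the mean of 5. The sums overlap between the groups in every panel. In the striated muscle panel 1 cyclic library sits alone at the top, and the miR-10 and miR-99, miR-100 and miR-125 panels each show 1 pregnant library far above the other 4.

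Of the 37 sequences of miR-10 and miR-196, 36 were lower and 1 higher, a form of miR-196b-5p shortened by 2 bases. The median log2FC was -1.07, with 14 lower and 1 higher at p under 0.05 (10.9% of all sequences). This list depended on PD16 replicate 1 and CD16 replicate 3. The sequences at p under 0.05 were 27 without PD16 replicate 1 (median -1.76), where 18.8% of all sequences had such a p. Without CD16 replicate 3 there were 3 (median -0.59), a share near the 7.45% of all sequences in that fit. Without both libraries there were 25 (median -1.49), where again 18.8% of all sequences had such a p. Of the 43 sequences of miR-99/100 and miR-125, 11 were higher and 32 lower. At p under 0.05 there were 3, a share below the 10.9% of all sequences, and 17 without PD16 replicate 1 (18.8% of all sequences). The list was lower in its miR-99 and miR-100 members (-0.70, -0.92 and -0.55 for miR-99b, miR-99a and miR-100), while miR-125a (0.25) and miR-125b (-0.0427), whose seed differs, were close to 0.

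The miR-30 list holds miRNAs from either arm of the miR-30a to miR-30e hairpins, and the arms differ in seed. All 9 of its miRNAs were higher in PD16, where 140 of all 238 with reads were. They ranged from 0.12 for miR-30e-5p to 0.95 for miR-30a-3p, and 8 of 9 were higher without CD16 replicate 3. Of their 53 sequences 40 were higher and 13 lower, with a median of 0.35, and all 7 of 53 at p under 0.05, near the 10.9% of all sequences, were higher. There were 16 at that level without PD16 replicate 1, 14 of them higher, against 18.8% of all sequences, and 3 without CD16 replicate 3, below the 7.45% of all sequences. miR-30a-5p, the most abundant, had 26464 ± 3572 normalized reads in PD16 and 17376 ± 4902 in CD16 (log2FC 0.61 ± 0.30 (SE), adjusted p = 0.55). With 1 library left out this log2FC ranged from 0.37 to 0.72. The DLK1-DIO3 list (19 of 20 found) had 33 of 42 sequences higher, with a median of 0.29 and 3 of 42 at p under 0.05, a share below the 10.9% of all sequences, and its summed reads were 1714 ± 431 in PD16 and 1066 ± 352 in CD16. Without PD16 replicate 1 the sequences had a median of 0.45 with 31 of 42 higher, and without PD16 replicate 1 and CD16 replicate 3 0.30 with 32 higher. Without CD16 replicate 3, 5 of 42 were at p under 0.05, all of them higher, a share above the 7.45% of all sequences. In that fit 6 of 21 miRNAs of the list were at that level, against 3 with every library. Of all 238 miRNAs with reads 23 were at that level in either fit. Of the 21 miRNAs of the DLK1-DIO3 list 16 were higher, where 140 of all 238 with reads were. In this list miR-411 was at 0.49, miR-380 at 0.57 and miR-136 at 0.53, while miR-382 (0.0095) and miR-494 (-0.00862) were near 0.

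The miR-23/27/24 clusters had 20 of 32 sequences higher and 12 lower, and 7 of 32 at p under 0.05 (10.9% of all sequences), each of them higher and 5 of miR-23a or the form it shares with miR-23b. Without CD16 replicate 3 there were 3 of 32 (7.45% of all sequences). miR-27b-3p (-0.31) and miR-24-3p (-0.28) were lower in PD16. The proliferation-linked miR-17/92 cluster and its paralogs had 20 of 31 higher, none at p under 0.05. Without PD16 replicate 1 there were 6 of 31, near the 18.8% of all sequences in that fit. let-7 was even with every library, with 31 sequences in each direction and 6 of 62 at p under 0.05, near the 10.9% of all sequences. Without CD16 replicate 3, 25 of its sequences were higher and 37 lower, where 412 of all sequences were higher and 460 lower. Without PD16 replicate 1 and CD16 replicate 3 these were 26 and 36. Of the X-linked clusters, miR-532/500 had 12 of 19 sequences higher with 3 at p under 0.05 (10.9% of all sequences), 2 higher and 1 lower. The cluster of miR-424, miR-450 and miR-542 had 13 of 16 sequences higher with 1 at p under 0.05, a share below that of all sequences. Of its miRNAs 5 of 6 were higher, where 140 of all 238 with reads were. Without PD16 replicate 1 these were 2 of 6, and the sequence at p under 0.05 was a lower one. Of the CREB-linked miRNAs, miR-212 was at 1.37 ± 0.63 (adjusted p = 0.481) and miR-132 at 0.30 ± 0.84, and without CD16 replicate 3 only 1 of them was higher in PD16. In the remaining lists none of the sequences had p under 0.05 with every library, and 14 of 26 were higher for miR-148 and miR-152, 6 of 11 for miR-221 and miR-222, 1 of 4 for miR-29, 23 of 35 for miRNAs linked to prostaglandin synthases (miR-101, miR-199a, miR-203 and miR-144) and 0 of 1 for hypoxia-induced miR-210. Apart from that of miR-221 and miR-222, these balances turned with the setting. For the prostaglandin synthase list 17 of 35 were higher without CD16 replicate 5 and 15 of 35 without PD16 replicate 1 and CD16 replicate 3, for miR-148 and miR-152 12 of 26 without both, for miR-29 3 of 4 without CD16 replicate 3, and miR-210 was higher with all deposited reads as library size.

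**Figure D4:**
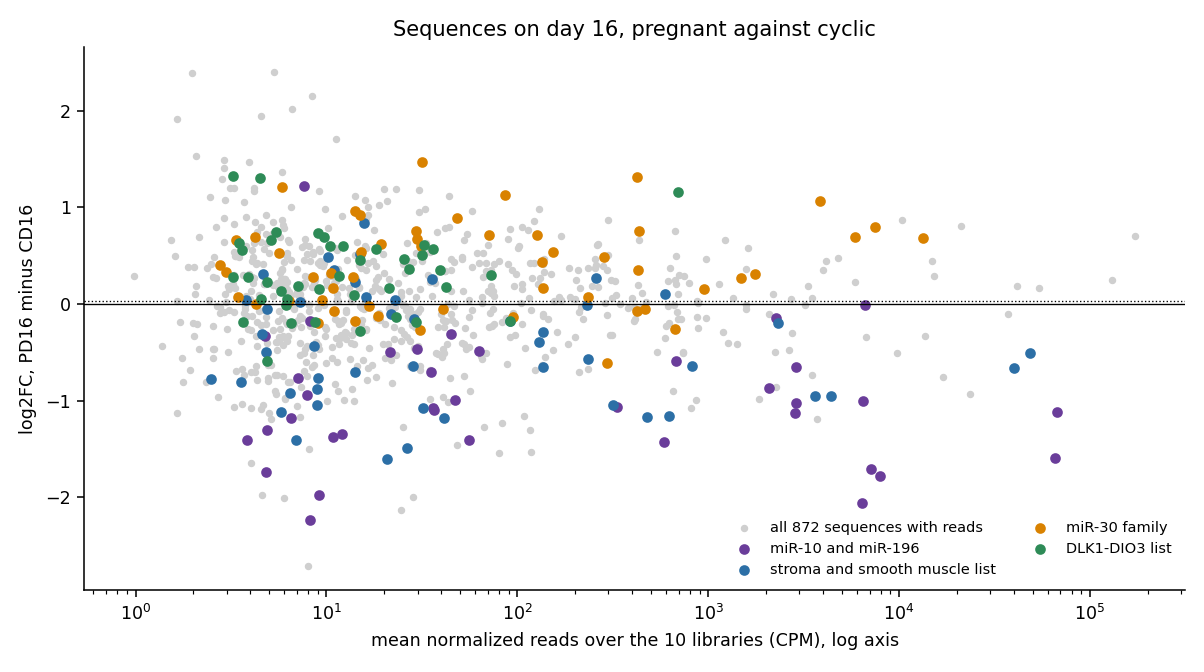
Each sequence by its mean normalized reads over the 10 libraries (log axis) and its log2FC, PD16 minus CD16, with 4 lists in colour. The miR-10 and miR-196 points lie below 0 except 1, the abundant miR-30 points mostly above 0, and the dotted line is the median of all sequences, 0.03.

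The make-up of each miRNA from its length variants was tested apart from its total in 798 sequences of miRNAs with 2 or more forms. None was called, and 19 had an unadjusted p under 0.05 (2.38%). The form of miR-532-5p without 3 bases made up 0.602% ± 0.387 in PD16 and 0.13% ± 0.0656 in CD16 (adjusted p = 0.132), higher in each pregnant than in each cyclic library. Of miR-145-5p, the form shortened by 4 bases took 3.43% ± 1.87 in PD16 and 0.926% ± 0.608 in CD16 (adjusted p = 0.605). A form of miR-181a took 20.3% ± 13.9 in PD16 and 6.59% ± 1.39 in CD16 (adjusted p = 0.605), miR-23a shortened by 2 bases 1.71% ± 0.695 in PD16 and 0.605% ± 0.434 in CD16 (adjusted p = 0.77), miR-30c-5p shortened by 2 bases 5.51% ± 3.64 in PD16 and 2.44% ± 0.950 in CD16 (adjusted p = 0.77), and miR-30a-5p shortened by 2 bases 0.876% ± 0.748 in PD16 and 2.24% ± 1.35 in CD16 (adjusted p = 0.77). Leaving out PD16 replicate 1 gave 2 calls and PD16 replicate 4 gave 1.

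For 10 measures per library the exact two-sided permutation test had a smallest possible p of 0.00794, which adjusts to 0.0794 for a single measure, so that no measure alone could pass 0.05. Of the reads placed on a canonical sequence, forms with a changed 5' end were 2.83% ± 1.82 in PD16 and 4.78% ± 1.81 in CD16 (exact p = 0.135, adjusted p = 0.675). PD16 replicate 1 (6.01%) and CD16 replicate 3 (7.80%), the libraries richest in miR-10, had the highest shares. Canonical reads were 57.6% ± 2.90 in PD16 and 56.9% ± 2.90 in CD16 (exact p = 0.651, adjusted p = 0.944), and reads of 22 nt were 50.2% ± 3.98 in PD16 and 52.1% ± 4.21 in CD16 (exact p = 0.492, adjusted p = 0.944). For miR-140-3p the form without the first base, which moves the seed by 1 position, is the more abundant.
miR-140-3p: tACCACAGggtagaaccacggac
miR-140-3p without its first base: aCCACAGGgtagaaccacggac
Reads with the shifted seed made up 58.1% ± 3.44 in PD16 and 55.6% ± 1.60 in CD16 (exact p = 0.206, adjusted p = 0.688), and all forms together had 6188 ± 2007 and 6524 ± 3373 normalized reads (log2FC -0.0763 ± 0.39 (SE)), a difference that turned its sign under other settings. Of the remaining miRNAs that the article follows, miR-191 was at -0.25 ± 0.34, miR-34a at 0.26 ± 0.40, miR-148a-5p at 0.40 ± 0.31, miR-199b-5p at -0.18 ± 0.32, miR-199b-3p at -0.29 ± 0.39 and let-7d-3p at 0.52 ± 0.46 (log2FC ± SE), all with an adjusted p of at least 0.700.

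Whether the difference between pregnancy and cycle on D16 departs from that on D20 was tested in 1 fit of all 30 libraries, with 6 of PD20 (horns opened, conceptuses dissected away) and 5 of CD20. By the article, PD20 endometrium was taken at the implantation sites, while on D16 the horns were flushed. The part of this difference in sampling was not tested. Of 239 miRNAs 18 were called (7.53%), 16 of them with a higher log2FC on D16, as were 21 sequences (2.41%) and 12 families (7.1%). Over all miRNAs the difference was positive for 156 with a median of 0.39. With all deposited reads as library size it was positive for 175 with a median of 0.64, and all 18 called miRNAs were positive. The called sequences were 13 positive and 8 negative with TMM scaling, and 19 and 1 with all deposited reads. So the balance between the directions depended on the scaling here too. With TMM scaling the difference in the DLK1-DIO3 list was positive for 16 of 21 miRNAs, with a median of 0.83 and 5 called. In that list 16 were higher in pregnancy on D16 and 8 on D20, where 145 and 97 of all 239 miRNAs were. miR-411 differed by 0.53 ± 0.26 on D16 and -1.25 ± 0.25 on D20 (log2FC ± SE), a difference of 1.77 ± 0.36 with adjusted p = 0.00611. It had 57.1 ± 13.7, 39.6 ± 7.57, 29.5 ± 6.27 and 70.0 ± 17.8 normalized reads in PD16, CD16, PD20 and CD20, so the highest mean was that of the cycle on D20. It was called in all 21 fits that left out 1 library of D16 or D20. The other 4 were miR-495-3p (called in 20 of 21), miR-380 (20), miR-758 (10) and miR-655 (10), and without CD20 replicate 1 only 1 of the 5 was called.

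In the miR-17/92 list the difference was positive for 8 of 10 miRNAs (median 1.16), against 156 of all 239 (median 0.39). Of the list miR-17-5p, miR-93-5p and miR-106b-5p were called, where 7.53% of all miRNAs were. These were called in 17, 10 and 19 of the 21 fits, and the list had 0 calls without CD16 replicate 5 or CD20 replicate 1 and 1 without PD16 replicate 1 or CD20 replicate 2. miR-17-5p differed by 0.15 ± 0.39 on D16 and -1.81 ± 0.37 on D20 (log2FC ± SE), a difference of 1.96 ± 0.53 with adjusted p = 0.0286, with 25.4 ± 5.59 and 22.9 ± 8.35 normalized reads on D16 and 34.3 ± 16.1 and 120.2 ± 86.2 on D20 (pregnant, then cyclic). Of the other called miRNAs, miR-155 differed by 1.21 ± 0.39 on D16 and -1.11 ± 0.35 on D20 (log2FC ± SE), a difference of 2.31 ± 0.52 with adjusted p = 0.00979. It was higher in pregnancy on D16 and lower on D20. miR-16, miR-195, miR-212, miR-126-5p, miR-374b-5p, miR-345 and miR-27a also had a higher log2FC on D16. miR-1468 (-1.73 ± 0.50) and the other arm of miR-361 (-1.55 ± 0.43) went the other way, and with all deposited reads as library size neither was called. The number of calls depended on single libraries of either day. Without CD20 replicate 1, 1 miRNA was called and no sequence, and without CD16 replicate 5, 4 miRNAs and no sequence. Against D12 (5 libraries of PD12 and 4 of CD12), which uses the same D16 libraries, no sequence, miRNA or family was called by the F-test or the likelihood ratio test of edgeR, with 71, 16 and 14 at an unadjusted p under 0.05 in the F-test. miR-10a-5p had a log2FC of -1.23, -1.56 and -1.32 on D12, D16 and D20 in this fit, and miR-205 0.26, -2.06 and -3.23.

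**Figure D5:**
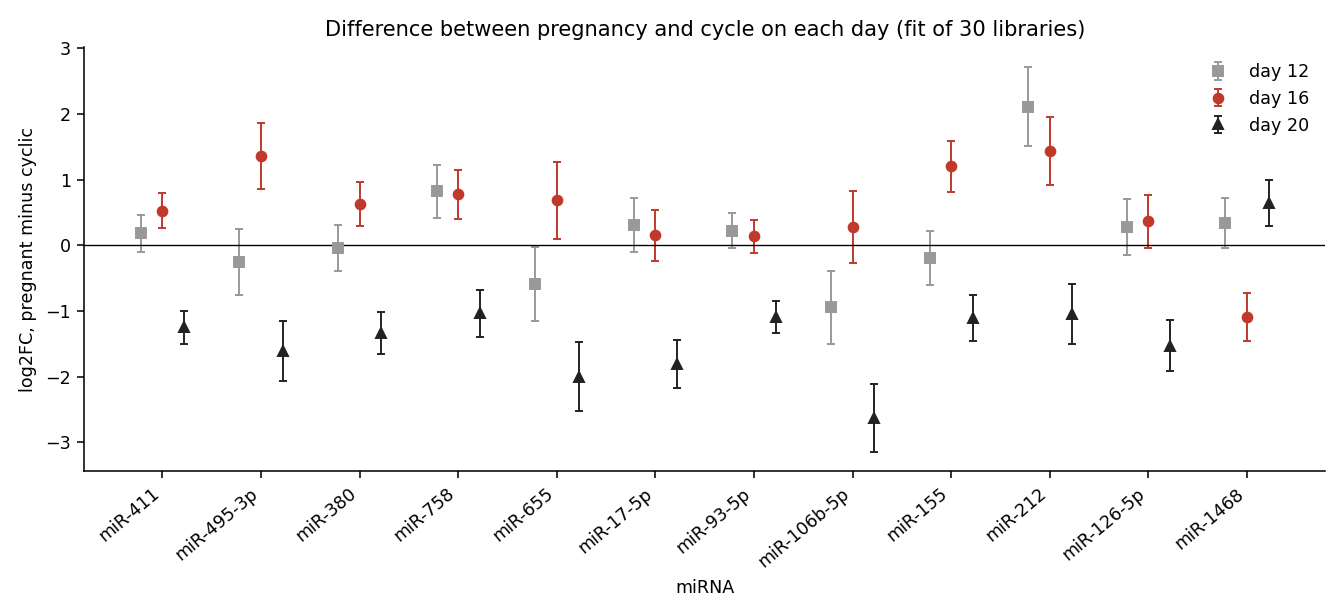
log2FC of pregnant minus cyclic libraries on D12 (grey squares), D16 (red circles) and D20 (black triangles) for 12 miRNAs called in the test of D16 against D20, with bars of 1 SE from the fit of 30 libraries. All D20 points lie below 0 and all D16 points above 0, except for miR-1468, where the order is reversed.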

How the data were processed

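Total RNA of frozen endometrium was made into small RNA libraries and sequenced by the authors, who joined 2 runs per library, kept reads with high base quality, removed adapters, discarded reads under 17 nt or with unknown bases, and collapsed identical reads. The deposited files hold raw counts per distinct sequence, without alignment or normalization. The authors also annotated 873 sequences against the pig genome and miRBase, and these were matched exactly to the deposited sequences. Sequences were summed per miRNA and per seed family. Fold changes and p-values of the study's own comparisons were not used.

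Counts were scaled by TMM over annotated reads and tested by quasi-likelihood (F-test) in edgeR 4.0.16 in R 4.3.3 (prior count 0.125), with Benjamini-Hochberg adjustment over all features of a level. A call needed an adjusted p under 0.05 together with a log2FC beyond 1 in either direction. The likelihood ratio test of edgeR and DESeq2 1.42.0 were alternatives, as were RLE scaling, all deposited reads as library size, a minimum mean of 10 CPM, 1 fit of all 30 libraries, a replicate block, a term for the range of the title number, and each library left out. Leaving out PD16 replicate 1 together with CD16 replicate 3 was added after seeing the data. IsomiRs were placed by an overlap of at least 12 bases with a canonical sequence. Library measures were compared by an exact two-sided permutation test (scipy 1.17.1). Scripts were tested on simulated data. The labels call the libraries biological replicates. They were sequenced in 3 pools, and which library was in which pool is not given in the sources used here, so results within pools were not compared. Reads carry no molecular identifiers, so limits from counts of 0 cover counting error only.

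Named are the miRNAs the article follows, up to 6 features of each level and direction with the smallest unadjusted p under 0.05, all sequences called by any of the 3 tests, the leading calls with 1 library left out, the 10 most abundant miRNAs, list members and up to 6 isomiRs by usage. The members and lists were chosen with earlier results of these data known.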

Additional observations from a re-analysis of the deposited data

Results flagged for a closer look

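Single libraries far from the rest of their group were found in 9 of 90 groups of 5 libraries examined, on values not log-transformed. A chance rate of 1 in 20, or 4.5, would need independent groups with normally spread values. These groups share libraries, so the 9 cannot be set against that rate. PD16 replicate 1 had the most miR-10a-5p (148465 normalized reads) and miR-10b (157918) of PD16, and the largest share of placed reads with a changed 5' end (6.01%). CD16 replicate 3 had the most miR-10a-5p (341904) and miR-10b (287300) of CD16. CD16 replicate 5 had the most miR-1 (17050) and miR-145-3p (138), CD16 replicate 1 the most miR-127 (888), and PD16 replicate 4 the most let-7d-3p (20.8).

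The difference between pregnancy and cycle was not the same on D16 and D20 for 21 sequences, 18 miRNAs and 12 families, by a test of the difference itself. Given as the log2FC on D16 minus that on D20, it was positive for miR-345 (3.71), miR-495-3p (2.97), miR-106b-5p (2.90), miR-655 (2.68), miR-212 (2.48), miR-155 (2.31), miR-16 (2.25), miR-195 (2.15), miR-374b-5p (2.03), miR-380 (1.97), miR-17-5p (1.96), miR-126-5p (1.90), miR-758 (1.81), miR-411 (1.77), miR-27a (1.62) and miR-93-5p (1.23). For these 16 the log2FC was above 0 on D16 and below 0 on D20. It was negative for miR-1468 (-1.73) and the other arm of miR-361 (-1.55), with the signs the other way round. Of the fits that left out 1 library of either day, miR-345 and miR-27a were called in 5 of 21. Over these fits the difference ranged from 1.62 to 3.17 for miR-106b-5p, 1.79 to 3.16 for miR-655 and 1.47 to 2.47 for miR-16.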

How the results depend on the processing

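The 0 calls among sequences, miRNAs and families became 5, 2 and 2 with the likelihood ratio test and 7, 2 and 2 with DESeq2, while a term for the range of the title number gave 2 miRNAs and 2 families. With 1 library left out they ranged from 0 to 36 sequences, 0 to 1 miRNAs and 0 to 4 families, and without both PD16 replicate 1 and CD16 replicate 3 they were 41, 1 and 4. RLE scaling, all deposited reads as library size, a minimum of 10 CPM and 1 fit of 30 libraries gave 0. Over all 15694 deposited sequences with at least 10 reads, 0 were called and 809 had p under 0.05. The same replicate numbers did not deviate together (correlations -0.33, 0.007, -0.22, -0.30 and 0.003), and with the replicate block 0 were called at every level, with 69 sequences, 16 miRNAs and 16 families at p under 0.05. Called members of the marker lists were 2 with the likelihood ratio test and 3 with DESeq2, where all sequences gave 5 and 7. With 1 library left out they were 0 to 5, where all sequences gave 0 to 36. Without both libraries they were 12, where all sequences gave 41. The lists hold 72 epithelial, 14 multiciliated, 54 stromal and smooth muscle, 17 endothelial, 19 leukocyte, 16 erythrocyte, 8 striated muscle and 1 embryonic sequence. The called members rose in number with the calls over all sequences, and an excess in the lists was not tested. Calls of isomiR usage ranged from 0 to 2. The test of D16 against D20 called 47 sequences with the likelihood ratio test and, with 1 library left out, 0 to 34 sequences, 1 to 23 miRNAs and 4 to 17 families.

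Of 70 named log2FC values, 65 kept their direction in every alternative. The other 5 ranged, with 1 library left out, from -0.13 to 0.76 for miR-23b, -0.28 to 0.19 for miR-140-3p, -0.31 to 0.030 for miR-199b-5p, -0.040 to 0.79 for let-7d-3p and -0.19 to 0.15 for let-7g. With all deposited reads miR-140-3p was at 0.019 and let-7g at 0.0027, without both libraries let-7g was at -0.26, and with the replicate block miR-140-3p was at 0.044. Of the 10 library measures 5 changed direction when 1 library was left out: annotated reads (-1.38 to 1.56 points), reads of 28 to 31 nt (-0.033 to 0.17), canonical reads (-0.45 to 1.88), and reads longer (-0.89 to 1.54) or shorter (-1.11 to 0.62) at the 3' end. The cause of these changes was not tested.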

Other observations

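Among deposited sequences outside the annotated ones, the one with the smallest p (chosen after its values were seen) shares its first 20 bases with miR-21 and then departs from it, as the capitals show.
miR-21 form with another 3' end: tagcttatcagactgatgttAAT
It had 62, 247, 84, 167 and 61 reads in PD16 replicates 1 to 5 and 18, 17, 9, 16 and 15 in CD16 replicates 1 to 5. Per 1000000 miR-21 reads this was 141 ± 55.0 (SD, n = 5) in PD16 and 23.6 ± 11.1 in CD16, and the groups did not overlap. Its log2FC was 3.37, with an adjusted p of 0.114 over 15694 sequences in the quasi-likelihood F-test of edgeR, so it was not called. PD16 replicate 1, which stood apart in other measures, was among the pregnant libraries here.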
